A study of Rattus norvegicus with 30 samples.

Results

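The nephron progenitor transcription factors *Six2*, *Cited1*, *Eya1*, *Osr1*, *Sall1*, *Pax2* and *Meox1* were examined in the kidneys of male pups of the stroke-prone spontaneously hypertensive rat (SHRSP), a strain with inherited high blood pressure. A member was measured where the array annotation gave a probe set with this gene as its single symbol. This was the case for 4 of the 7 genes, *Eya1* (probe set 1379902_at), *Sall1* (1391194_at), *Pax2* (1380117_at) and *Meox1* (1393974_at), of 14217 genes with such a probe set in all. Each of the 4 had 1 probe set, so no second probe set could serve as a check. *Six2*, *Osr1* and *Cited1* were not analysed here, the last because its probe set carried several symbols. Dams received a diet with 9% casein (low-protein, LP) or 20% casein (control, CN) during pregnancy and a commercial diet after delivery. Pups were culled at 5 days (D5), 10 days (D10) or 4 weeks (D28), which gave the groups D5-LP, D5-CN, D10-LP, D10-CN, D28-LP and D28-CN with 5 arrays each. Kidney RNA was hybridised to 30 Affymetrix GeneChip rat genome arrays, and every value below is the deposited log2 signal of a probe set, or a difference of such signals.

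Nephron progenitors are mesenchymal cells that cap the tips of the branching ureteric bud and either renew themselves or turn into the epithelium of a new nephron. In the rat this process goes on for some days after birth, until the cap cells have all differentiated. The transcription factor *Six2* and its co-activator *Eya1* keep the cells in the progenitor state, *Osr1* and *Sall1* act in the same cells, and *Cited1* and *Meox1* are used to mark them in the mouse. *Pax2* is active in the cap, in the forming nephron and in the ureteric bud with its collecting ducts.

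The mean signal of an array lay between 6.92 and 6.94 at D5, between 6.85 and 6.87 at D10, and between 6.86 and 6.87 at D28, and arrays of the same group had a Pearson's r of 0.983 to 0.998. The sources used here do not say if all ages went through 1 normalization, which bears on every comparison between ages. Kidney epithelium markers averaged 11.35 to 11.79 per array, against array medians of 6.75 to 6.87, and skeletal muscle markers averaged 4.56 to 4.96. The methods speak of pooled RNA, whereas the labels name biological replicates, and no litter is given. The p-values therefore cover only array-to-array spread, part of which may be technical, and treat pups that may share a dam as independent. In whole kidney RNA, fewer cells of a type and less RNA per cell cannot be told apart. With 5 arrays a group, precision is limited by their number.

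The 4 measured factors did not decline together with age. *Eya1* and *Sall1* were lower at D10 than at D5 and higher again at D28 than at D10, in the offspring of both diets. *Meox1* was higher at D28 than at both earlier ages, and *Pax2* did not pass the test between any ages. None of the 4 was thus called lower at both steps over the 3 ages, and the genes are treated one by one below.

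*Eya1*, the phosphatase and co-activator that works with *Six2*, had signals of 7.19, 7.03, 7.03, 6.996 and 7.34 in the D5-LP kidneys and 7.24, 7.39, 7.37, 7.85 and 7.67 in the D5-CN kidneys. At D10 the signals were 6.16, 6.17, 6.39, 6.21 and 6.27 in the LP group and 6.27, 6.15, 6.22, 6.16 and 6.28 in the CN group. At D28 they were 6.67, 6.74, 6.85, 6.75 and 6.82 in the LP group and 7.001, 6.87, 6.85, 7.04 and 6.80 in the CN group. Within each diet the arrays of the 3 ages did not overlap, with D5 highest, D28 between and D10 lowest. From D5 to D10 *Eya1* fell by 0.88 in LP kidneys (95% CI −1.05 to −0.71, limma, adjusted p = 5.54e-09) and by 1.29 in CN kidneys (95% CI −1.46 to −1.12, adjusted p = 2.23e-12), a 1.84-fold and a 2.44-fold lower signal. Only 0.77% of all probe sets had a lower difference in LP kidneys, and 0.39% in CN kidneys. From D10 to D28 it rose by 0.53 in LP kidneys (limma, adjusted p = 5.18e-06) and by 0.70 in CN kidneys (adjusted p = 5.66e-08). The D28 signal was still below that of D5, by −0.35 in LP kidneys (limma, adjusted p = 0.000665) and −0.59 in CN kidneys (adjusted p = 6.26e-07), but with each array centred on reference genes the difference was 0.13 in LP kidneys (adjusted p = 0.171) and −0.13 in CN kidneys (adjusted p = 0.167), so neither direction held as a call.

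*Sall1*, a zinc finger factor needed for the outgrowth of the ureteric bud and for the upkeep of the progenitor pool in the mouse, had signals of 9.19, 9.24, 9.21, 9.06 and 9.56 in the D5-LP kidneys and 9.37, 9.37, 9.14, 9.63 and 9.69 in the D5-CN kidneys. At D10 they were 8.69, 8.41, 8.72, 8.92 and 8.97 in the LP group and 8.53, 8.88, 8.75, 8.75 and 8.70 in the CN group. All D10 arrays of a diet lay below all its D5 and D28 arrays. At D28 the LP arrays held 9.21, 9.23, 9.28, 9.28 and 9.39, and the CN arrays 8.92, 9.45, 9.24, 9.30 and 9.32. *Sall1* fell by 0.51 in LP kidneys (95% CI −0.73 to −0.28, limma, adjusted p = 0.000529) and by 0.72 in CN kidneys (95% CI −0.94 to −0.49, adjusted p = 6.32e-06) between D5 and D10, and rose by 0.54 (adjusted p = 0.000129) and 0.53 (adjusted p = 0.000162) in LP and CN kidneys between D10 and D28. Unlike for *Eya1*, the D28 arrays overlapped the D5 arrays, with a difference of 0.03 in LP kidneys (95% CI −0.20 to 0.25, limma, adjusted p = 0.835) and −0.19 in CN kidneys (95% CI −0.42 to 0.03, adjusted p = 0.127), which without the D5-CN array 3 was −0.27 (adjusted p = 0.0364). Centred on reference genes, these differences were 0.51 and 0.27, with adjusted p of 0.000232 in LP kidneys and 0.0364 in CN kidneys (limma).

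*Meox1*, a homeobox gene better known from the somites, had low signals at D5 that were not shown to be above background, since no detection calls were used here. They were 4.00, 4.01, 3.99, 3.87 and 3.91 in the D5-LP kidneys and 3.73, 4.02, 4.06, 3.94 and 4.15 in the D5-CN kidneys. The D10-LP kidneys had 4.81, 4.36, 4.10, 4.48 and 4.20, and the D10-CN kidneys 3.87, 4.51, 4.25, 4.13 and 4.06. In the D10-LP group all 5 arrays were above all D5-LP arrays, but the difference of 0.43 did not pass the test (95% CI −0.15 to 1.02, limma, adjusted p = 0.236). With only the 10 arrays of these groups in the fit, the same difference had an adjusted p of 0.00958 (limma). At D28 the signals were 5.53, 6.59, 7.19, 7.05 and 5.67 in LP kidneys and 4.74, 6.89, 5.21, 5.47 and 5.33 in CN kidneys, all above the D10 arrays of the same diet, and they spread over more than 1 log2 unit within each group. *Meox1* rose by 2.02 in LP kidneys (95% CI 1.43 to 2.60, limma, adjusted p = 7.65e-07) and by 1.36 in CN kidneys (95% CI 0.78 to 1.95, adjusted p = 0.000176) between D10 and D28. Against D5, the D28 signal was 2.45 higher in LP kidneys (limma, adjusted p = 1.73e-08) and 1.55 higher in CN kidneys (adjusted p = 2.85e-05), differences that may understate the change if the D5 signal was background. Fewer than 2% of probe sets had a larger difference, 0.41% in LP kidneys and 1.34% in CN kidneys.

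*Pax2*, the paired box factor that acts in the cap mesenchyme and the ureteric epithelium alike, did not pass the test between ages and varied widely within groups. Its group means ran from 7.80 ± 0.57 (SD, n = 5 arrays) in D10-LP kidneys to 8.37 ± 0.57 in D28-LP kidneys, and the means of the other 4 groups lay between 7.99 and 8.14. The D10-LP arrays held 7.54, 7.07, 7.63, 8.46 and 8.28, and the D10-CN arrays 7.61, 8.67, 8.64, 7.51 and 7.55. At D10 each diet group thus had 2 high arrays, at 8.28 or above, and 3 low ones, at 7.63 or below, and the SD of *Pax2* exceeded that of 99.3% of all probe sets in both groups. These high and low arrays also differed in a sign of RNA quality, the mean signal of the 3′ less that of the 5′ control probe sets of actin and GAPDH. It was 0.779 and 0.674 on the high D10-LP arrays and 0.725 and 0.669 on the high D10-CN arrays, against 0.429 to 0.617 on the 6 low arrays, and its part in the spread of *Pax2* was not tested. At D5 the signals were 8.01, 8.07, 8.28, 7.83 and 8.53 in LP kidneys and 7.84, 7.99, 7.94, 8.31 and 8.48 in CN kidneys. At D28 they were 7.82, 8.36, 9.13, 8.74 and 7.83 in LP kidneys and 7.65, 8.52, 8.20, 8.13 and 7.88 in CN kidneys. The arrays of all groups overlapped. Only the step from D10 to D28 in LP kidneys came near the threshold, with a difference of 0.58 (95% CI 0.02 to 1.14, limma, adjusted p = 0.0673), and it passed with quantile normalization (adjusted p = 0.0486), with median centring (adjusted p = 0.0429) and with centring on reference genes (adjusted p = 0.00507). It also passed without any 1 of the D10-LP arrays 4 and 5 and the D28-LP arrays 1 and 5, at 0.70 to 0.745 (adjusted p from 0.023 to 0.0383).

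**Figure D1:**
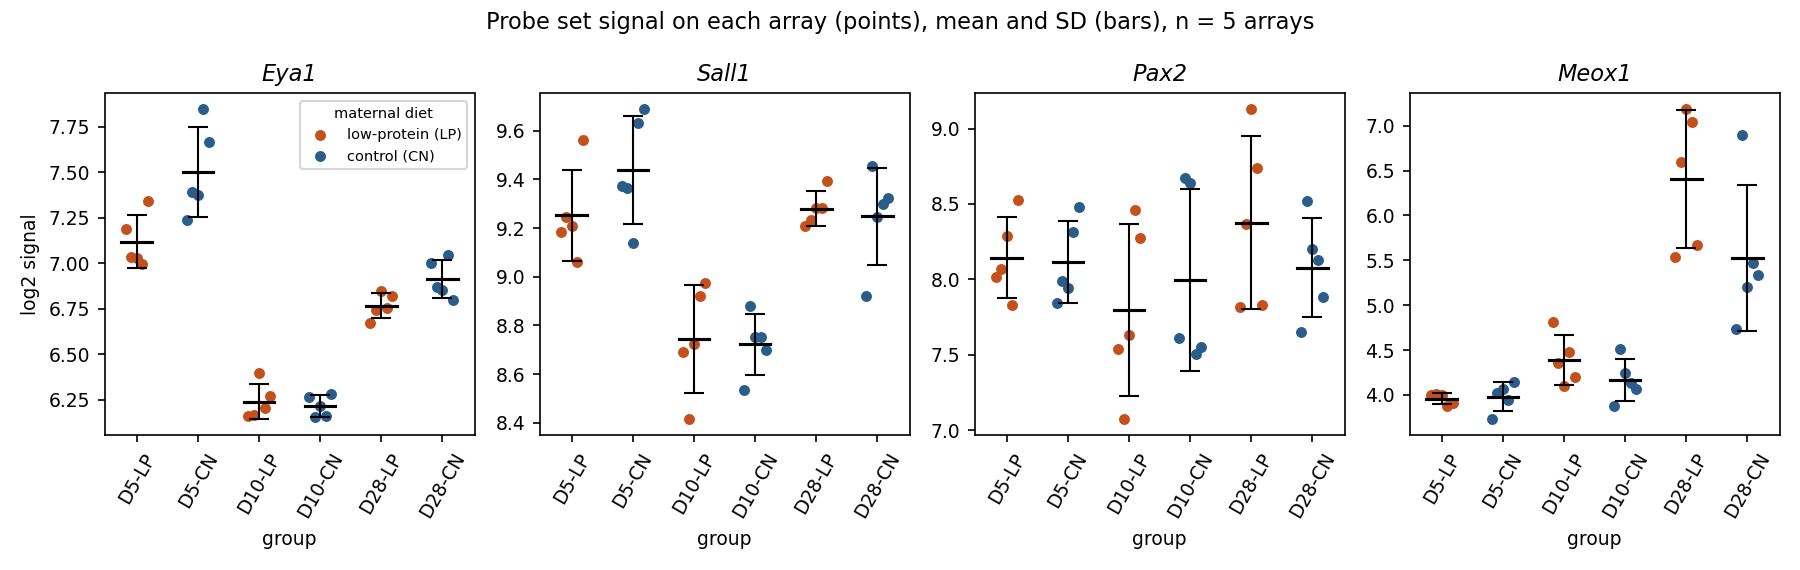
Log2 signal of the probe sets of *Eya1*, *Sall1*, *Pax2* and *Meox1* (vertical axes, which differ in range and do not start at 0) on each array of the 6 groups (horizontal axis, LP in orange and CN in blue), with the mean and SD of 5 arrays in black. *Eya1* and *Sall1* are lowest at D10, *Meox1* is highest at D28, and *Pax2* spreads over more than 1 log2 unit in the D10 groups.

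Ranked by group mean, *Eya1* was highest in D5-CN (7.50 ± 0.25), followed by D5-LP (7.12 ± 0.15), D28-CN (6.91 ± 0.10), D28-LP (6.77 ± 0.07), D10-LP (6.24 ± 0.10) and D10-CN (6.21 ± 0.06), and the neighbours D10-LP and D10-CN differed by less than their SD. For *Sall1* the order was D5-CN (9.44 ± 0.22), D28-LP (9.28 ± 0.07), D5-LP (9.25 ± 0.19), D28-CN (9.25 ± 0.20), D10-LP (8.74 ± 0.22) and D10-CN (8.72 ± 0.13). Of these neighbours, only D28-CN and D10-LP lay further apart than their SDs. For *Meox1* the order was D28-LP (6.41 ± 0.77), D28-CN (5.53 ± 0.81), D10-LP (4.39 ± 0.28), D10-CN (4.17 ± 0.24), D5-CN (3.98 ± 0.16) and D5-LP (3.96 ± 0.06). The neighbours D10-LP and D10-CN, and D5-CN and D5-LP, differed by less than their SDs. No neighbours among the *Pax2* means differed beyond their SDs.

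Counted over the members, 2 of 4 were called between D5 and D10 in the kidneys of each diet, both lower at D10, where limma at an adjusted p under 0.05 called 39.9% of all probe sets in LP kidneys and 44.6% in CN kidneys. Of all probe sets, 28.7% in LP and 30.3% in CN kidneys were called lower. Between D10 and D28, 3 of 4 were called in each diet, all higher, against 59.9% (31.1% higher) in LP and 60.4% (31.5% higher) in CN kidneys. Between D5 and D28, 1 member was higher and 1 lower in each diet, where 64.8% of probe sets were called in LP kidneys (28.2% higher, 36.6% lower) and 64.5% in CN kidneys (29.0% higher, 35.6% lower). The arrays of both ages did not overlap for 3, 3 and 2 members in LP kidneys (D10 against D5, D28 against D10 and D28 against D5), against 28.1%, 42.0% and 51.4% of all probe sets, and for 2, 3 and 2 members in CN kidneys, against 26.8%, 40.2% and 49.7%. With so large a background, the count of members called is no result about the members. The order of a lower call at D10 and a higher call at D28, shown by *Eya1* and *Sall1*, was shared by 8.34% of all probe sets in LP kidneys and 8.94% in CN kidneys.

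The balance of higher and lower calls depended on the scaling of the arrays. Of the probe sets called between D5 and D10, 28.2% were higher in LP kidneys and 32.0% in CN kidneys. These shares were 48.0% and 48.4% after quantile normalization, 39.2% and 42.0% after median centring, and 70.9% and 71.1% after centring on 5 reference genes, in LP and CN kidneys in that order. Between D5 and D28, 43.6% of the calls in LP and 44.9% in CN kidneys were higher, against 53.7% and 54.3% after median centring and 85.5% and 84.3% after centring on the reference genes, which put the median difference of all probe sets at 0.44 in LP and 0.43 in CN kidneys, where it had been −0.04 and −0.03. Between D10 and D28 the share was 51.9% in LP and 52.2% in CN kidneys, against 86.1% and 84.4% after the reference gene centring. The falls of *Eya1* and *Sall1* between D5 and D10, their rises between D10 and D28 and the rise of *Meox1* between D10 and D28 passed the threshold under each of these scalings in both diets.

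**Figure D2:**
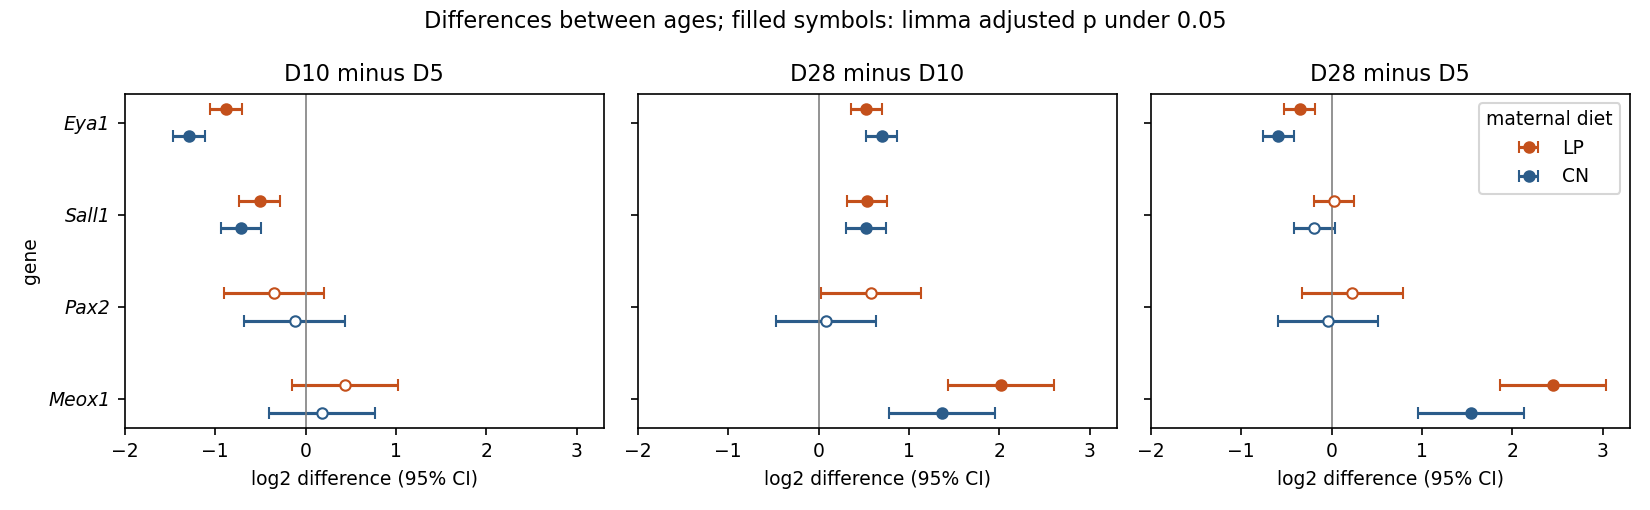
Log2 differences between ages (horizontal axes) with 95% confidence intervals for the 4 genes (vertical axis), LP above CN, filled where the limma adjusted p was under 0.05. *Eya1* and *Sall1* lie left of 0 between D5 and D10 and right of 0 between D10 and D28, whereas *Meox1* lies right of 0 in both comparisons with D28.

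Other genes of the nephrogenic zone, the outer rim where nephrons form, gave the setting for these 4. Among 22 measured genes of the cap mesenchyme other than the members, 3 were higher and 9 lower at D10 than at D5 in LP kidneys, and 4 were higher and 8 lower in CN kidneys. The homeobox gene *Uncx* fell (log2 difference −1.65 in LP and −2.02 in CN kidneys), as did *Osr2*, a relative of *Osr1* (−1.36 and −1.35), *Mycn*, a driver of progenitor growth (−1.65 and −1.99), and the RNA-binding protein gene *Elavl4* (−1.18 and −1.21). Between D10 and D28, 12 of the 22 were lower and 0 higher in LP kidneys, and 13 were lower and 1 higher in CN kidneys, the last being *Osr2* at 0.28. At D28 against D5, 14 of the 22 were lower in both diets, with 2 higher in LP and 1 in CN kidneys, and the median difference was −0.91 in LP and −0.79 in CN kidneys, against −0.04 and −0.03 over all probe sets. The step between D10 and D28 thus went the other way in *Eya1* and *Sall1* than in most called genes of this list, among them *Meox2*, a homeobox relative of *Meox1*, which fell (log2 difference −2.62 in LP and −2.33 in CN kidneys).

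Genes of the early nephron, the vesicles and S-shaped bodies into which the cap cells turn, were in part lower at D10 and moved both ways after it. Between D5 and D10, 9 of 18 fell and 1 rose in LP kidneys, and 10 fell and 0 rose in CN kidneys. *Fgf8*, a growth factor of the renal vesicle, fell (log2 difference −1.76 in LP and −2.11 in CN kidneys), as did *Lhx1*, a transcription factor of the vesicle (−0.94 and −1.17), and *Bmper*, a modulator of bone morphogenetic proteins (−1.87 and −2.83). Between D10 and D28, 6 were higher and 8 lower in LP kidneys, and 5 were higher and 4 lower in CN kidneys. At D28, 12 of 18 were lower than at D5 in LP and 11 in CN kidneys, with 3 higher in each. *Lef1*, a mediator of Wnt signals, fell over this span (log2 difference −2.03 in LP and −1.80 in CN kidneys).

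Of 7 measured genes of the ureteric tip, 4 were lower and 1 higher at D10 than at D5 in LP kidneys, and 3 were lower and 1 higher in CN kidneys. The GDNF co-receptor gene *Gfra1* fell (log2 difference −1.29 in LP and −1.52 in CN kidneys), as did *Etv4*, a transcription factor downstream of Ret (−1.35 and −1.58). *Gfra1* rose between D10 and D28, by 0.68 in LP and by 0.65 in CN kidneys, while *Etv4* fell further (−1.79 and −2.10). Of 12 genes of the nephrogenic stroma, 2 were higher and 4 lower at D10 than at D5 in LP kidneys, and 5 were higher and 3 lower in CN kidneys, whereas between D10 and D28 10 were lower in LP and 8 in CN kidneys, with 2 higher in each. Of 17 niche signals and receptors, 2 rose and 2 fell between D5 and D10 in LP kidneys, and 3 rose and 4 fell in CN kidneys. Between D10 and D28, 7 rose and 6 fell in both diets. *Tcf21*, a transcription factor of the kidney mesenchyme, rose between D5 and D10 (log2 difference 0.61 in LP and 0.71 in CN kidneys) and fell between D10 and D28 (−1.61 and −1.56). The growth factor gene *Fgf20* averaged 4.12 in LP and 4.15 in CN kidneys at D5, 3.59 and 3.71 at D10, and 4.599 and 4.662 at D28, signals that were not shown to be above background.

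The pattern of *Eya1* and *Sall1*, lower at D10 and higher at D28, was met by 0 of the 22 other cap mesenchyme genes in LP kidneys and 1 in CN kidneys (*Osr2*), by 2 of 18 early nephron genes in LP and 4 in CN kidneys, by 2 of 17 niche genes in LP and 4 in CN kidneys, and by 1 of 7 ureteric tip genes in each (*Gfra1*). *Fgf8*, *Lhx1*, *Fgf20*, *Fgf2* and *Gfra1* met it in both diets. At D10 the signals of *Fgf8* (3.32 in LP and 3.29 in CN kidneys) and *Fgf2* (4.32 in LP kidneys) were low. Like those of *Fgf20*, they were not shown to be above background. The pattern was met by 0 of 12 stroma genes and by 0 of 21 cell proliferation genes in either diet. Outside the nephrogenic lists it was met by 3 of 8 adrenal gland markers in each diet, by 2 of 5 red blood cell markers in LP and 1 in CN kidneys, by 1 of 11 skeletal muscle markers in LP and 2 in CN kidneys, and by 1 of 9 kidney epithelium markers in LP and 0 in CN kidneys. In either diet 0 of 11 inner medulla, 0 of 11 cortex, 0 of 7 adipose and 0 of 8 macrophage and leukocyte markers met it. The shares over all probe sets were 8.34% in LP and 8.94% in CN kidneys.

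Markers of other cells moved over the same ages. Of 21 genes of cell proliferation, 19 were lower at D10 than at D5 in LP kidneys and 21 in CN kidneys (median differences −0.69 and −0.82), and 21 were lower at D28 than at D5 in both diets. Of 7 adipose tissue markers, 6 were higher at D10 than at D5 in each diet, with *Ucp1*, the uncoupling protein of brown fat, 4.35 higher in LP and 3.58 higher in CN kidneys. Their mean was 5.67 ± 0.10 in D5-LP, 5.69 ± 0.14 in D5-CN, 7.69 ± 0.84 in D10-LP, 7.23 ± 0.27 in D10-CN, 6.81 ± 0.26 in D28-LP and 6.93 ± 0.22 in D28-CN kidneys, so the age at which *Eya1* and *Sall1* were lowest was also the age with the highest adipose markers. The adrenal gland markers, from the organ that lies next to the kidney, averaged 4.70 to 5.60 per array. These low signals were not shown to be above background. Between D5 and D10, 4 of 8 fell and 0 rose in each diet (median differences −0.31 in LP and −0.28 in CN kidneys). Between D10 and D28, 4 rose and 2 fell in LP kidneys, and 5 rose and 0 fell in CN kidneys (medians 0.28 and 0.32). Of the 8, 3 met the pattern of *Eya1* and *Sall1* in each diet. At D28 against D5, 4 of 11 cortex markers were higher and 1 lower in LP kidneys, and 6 were higher and 1 lower in CN kidneys. Of 11 inner medulla markers, 3 were higher and 0 lower at D10 than at D5 in each diet. At D28 against D5, 6 of these were higher and 2 lower in LP kidneys, and 4 were higher and 2 lower in CN kidneys. The part of these changes in those of the members was not tested.

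**Figure D3:**
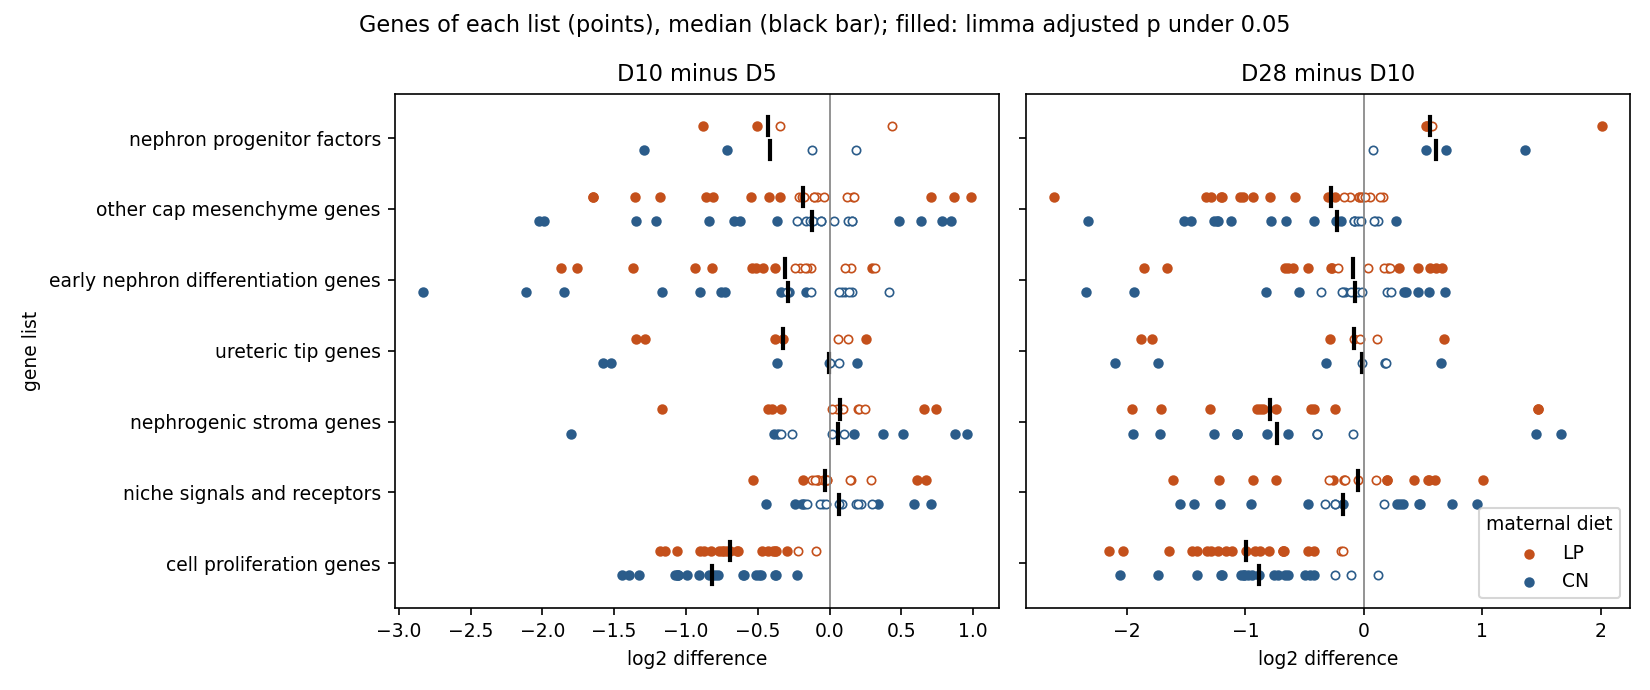
Log2 differences (horizontal axes) of the 4 nephron progenitor factors and of the measured genes of 6 other lists (vertical axis), LP above CN, filled where the limma adjusted p was under 0.05, with the median as a black bar. Between D10 and D28 the 4 factors lie right of 0, with *Pax2* not called in either diet and at 0.08 in CN kidneys. The medians of the 6 other lists lie left of 0, some of them close to it (−0.01 for the ureteric tip genes in CN kidneys).

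Within a group, the 4 genes did not vary alike. The median SD of all probe sets ran from 0.10 in the D5-LP group to 0.13 in the D10-CN group. *Meox1* had a lower SD than this in D5-LP kidneys (0.06) but exceeded 99.9% of all probe sets in both D28 groups (0.77 in LP and 0.81 in CN), and *Eya1* was among the steadier probe sets at D10, with 35.4% of probe sets below its SD in LP and 8.9% in CN kidneys.

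At D5, when nephrons still form, *Eya1*, *Sall1* and *Pax2* varied together between arrays of the same group. With the group means removed, over the 10 arrays, *Sall1* and *Pax2* had a Pearson's r of 0.881 (permutation test, p = 0.00089, adjusted p = 0.00534 over 6 pairs) and a Spearman's rho of 0.879 (permutation p = 0.00158, adjusted p = 0.00948), and leaving out the 2 arrays at the extremes of *Sall1* gave an r of 0.713. For *Eya1* and *Sall1*, r was 0.791 (permutation p = 0.00734, adjusted p = 0.0147), rho 0.782 (permutation p = 0.0106, adjusted p = 0.0212) and r without 2 arrays 0.644. *Eya1* and *Pax2* also had an r of 0.791 (permutation p = 0.00736, adjusted p = 0.0147), with rho at 0.842 (permutation p = 0.00374, adjusted p = 0.0112) and r without 2 arrays at 0.729. The 3 pairs with *Meox1* had r of 0.0977 to 0.41 and did not pass (permutation tests, adjusted p from 0.371 to 0.795). How common such correlations were among all probe sets on these arrays was not computed. Genes other than the members reached a higher r, such as *Pak2* with *Sall1* (0.98), *Hsp90b1* with *Eya1* (0.99) and *Rad54l* with *Pax2* (0.97). The correlations are thus not shown to be particular to the members.

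The arrays that were high in these genes also stood apart in markers of the kidney zones. A medulla minus cortex score (zone score), the mean of 11 inner medulla markers less that of 11 cortex markers, was −1.48 to 0.34 over the 30 arrays. Group means of the score were −0.96 in D5-LP, −1.08 in D5-CN, −0.545 in D10-LP, −0.69 in D10-CN, −0.47 in D28-LP and −0.84 in D28-CN kidneys. In both diets the score was thus higher at D10 than at D5, while *Eya1* and *Sall1* were lower. At D5, with group means removed over 10 arrays, it went with *Sall1* (r = 0.932, permutation p = 0.0001, adjusted p = 0.0006 over 12 relations, rho = 0.927, permutation p = 0.00035, adjusted p = 0.0042, and r = 0.922 without 2 arrays), with *Pax2* (r = 0.846, permutation p = 0.00183, adjusted p = 0.00439, rho = 0.867, permutation p = 0.00183, adjusted p = 0.00511, and r = 0.972 without 2 arrays) and with *Eya1* (r = 0.785, permutation p = 0.00709, adjusted p = 0.0142, rho = 0.867, permutation p = 0.00213, adjusted p = 0.00511, and r = 0.738 without 2 arrays). The D5-LP array 5 and the D5-CN arrays 4 and 5, which had the highest *Sall1* and *Eya1* of their groups, had cortex marker means of 10.63, 10.52 and 10.74, against 11.02 to 11.30 on the other 7 D5 arrays, inner medulla marker means of 9.88, 9.78 and 9.91, against 9.82 to 10.27, and proliferation means of 9.60, 9.78 and 9.70, against 9.32 to 9.56. Their higher scores thus came with lower cortex markers, not with higher inner medulla markers.

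At D10 the score went with *Sall1* (r = 0.88, permutation p = 0.00097, adjusted p = 0.00291, rho = 0.855, permutation p = 0.00304, adjusted p = 0.00608, and r = 0.667 without 2 arrays), and for *Pax2* it did not pass (r = 0.66, permutation p = 0.0427, adjusted p = 0.0731, rho = 0.564, permutation p = 0.0957, adjusted p = 0.164, and r = 0.472 without 2 arrays). The highest *Sall1* signals of D10 were on the D10-LP arrays 4 and 5 and the D10-CN array 2. Their 3′ less 5′ signal was 0.779, 0.674 and 0.725, against 0.429 to 0.669 on the other D10 arrays, and its part was not tested. At D28 the score went with *Meox1* (r = 0.944, permutation p = 7e-05, adjusted p = 0.0006, rho = 0.903, permutation p = 0.00082, adjusted p = 0.00468, and r = 0.909 without 2 arrays) and *Pax2* (r = 0.914, permutation p = 0.00015, adjusted p = 0.0006, rho = 0.891, permutation p = 0.00117, adjusted p = 0.00468, and r = 0.878 without 2 arrays). The highest *Meox1* and *Pax2* signals of D28 were on the D28-LP arrays 3 and 4 and the D28-CN array 2, whose scores of 0.34, −0.24 and 0.01 were also the highest of that age. The 3′ less 5′ signal was 0.792, 0.607 and 0.639 on these arrays, against 0.511 to 0.644 on the other 7 D28 arrays, and its part was not tested. The other 5 relations, among them those of *Eya1* at D10 and D28, had r of 0.0107 to 0.568 and did not pass (permutation tests, adjusted p from 0.137 to 0.976). The relations with the score were computed after the spread of these genes had been seen.

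**Figure D4:**
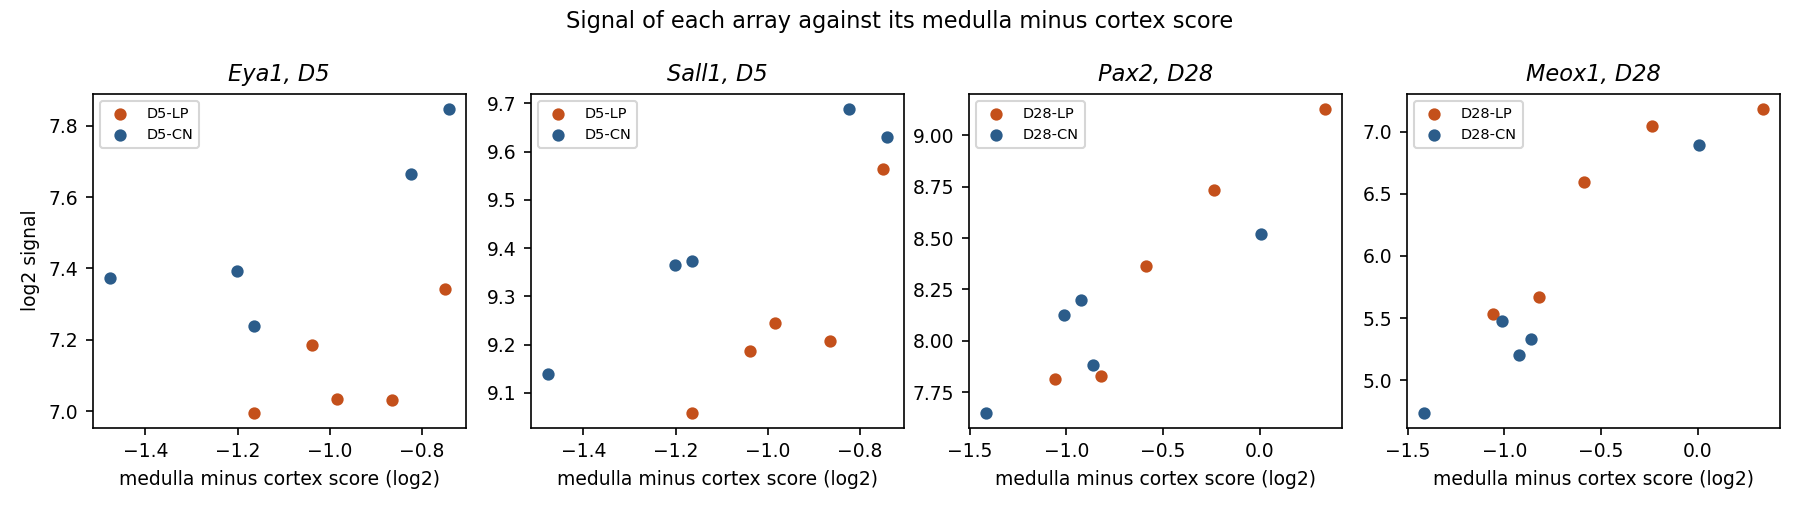
Log2 signal (vertical axes) of *Eya1* and *Sall1* on the 10 D5 arrays and of *Pax2* and *Meox1* on the 10 D28 arrays against the medulla minus cortex score of the same array (horizontal axes, log2), LP in orange and CN in blue. The signals tend to be higher on arrays with a higher score in each panel, and at similar scores the LP arrays lie below the CN arrays for *Eya1* at D5.

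The maternal diet groups were compared within each age at an adjusted p under 0.2. By limma, 0 of 4 members passed at D5, D10 or D28, where 0.00644% of all probe sets passed at D5 (*Axin2* and *Col15a1*, named after their values were seen) and 0% at D10 and D28. An unadjusted p under 0.05 was reached by 1 member at D5 (8.19% of all probe sets), 0 at D10 (5.02%) and 1 at D28 (6.09%), in both cases *Eya1*. The arrays of both diets overlapped for all 4 members at each age, whereas 1.48%, 1.11% and 0.857% of all probe sets did not overlap at D5, D10 and D28. Rank products, the method of the study, called 1 member at D5, 0 at D10 and 2 at D28 at a false discovery rate under 0.2, where they called 2.16%, 0.757% and 3.04% of all probe sets. They do not scale a difference by the spread of its probe set.

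*Eya1* averaged 7.12 ± 0.15 in D5-LP kidneys and 7.50 ± 0.25 in D5-CN kidneys (SD, n = 5 each). All 5 LP arrays lay below the CN mean, yet the highest LP array (7.34) was above the lowest CN array (7.24). The difference was −0.39 (95% CI −0.63 to −0.14, limma, p = 0.00465, adjusted p = 0.457, exact permutation p = 0.0159, where 0.00794 is the smallest p that 5 arrays against 5 allow). Of all probe sets, 0.19% had a lower difference. It passed the threshold by rank products (false discovery rate 0.0313), with all 30 arrays in 1 fit (limma, adjusted p = 0.166) and with the zone score in the model, where it was −0.47 (adjusted p = 0.165). Of 31042 probe sets, limma called 38 with all arrays in 1 fit and 362 with the zone score, against 2 without either. On the D5 arrays the zone score itself went with *Eya1* (r = 0.785) and *Sall1* (r = 0.932). *Sall1* averaged 9.25 ± 0.19 in D5-LP and 9.44 ± 0.22 in D5-CN kidneys, a difference of −0.19 (95% CI −0.43 to 0.06, limma, adjusted p = 0.702), which with the zone score was −0.28 and passed (adjusted p = 0.165). The score itself was −0.96 ± 0.16 in D5-LP and −1.08 ± 0.30 in D5-CN kidneys (exact permutation p = 0.452, n = 5 each), and the proliferation genes, 21 of 21 of them lower in the LP group and 0 called, averaged 9.41 ± 0.12 and 9.57 ± 0.17.

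*Pax2* and *Meox1* at D5, and all 4 genes at D10, differed between the diets by less than the spread of their arrays. The D5 difference was 0.03 for *Pax2* (95% CI −0.28 to 0.34) and −0.02 for *Meox1* (95% CI −0.19 to 0.14). At D10 the differences were 0.02 for *Eya1* (95% CI −0.11 to 0.16), 0.02 for *Sall1* (95% CI −0.21 to 0.25), −0.20 for *Pax2* (95% CI −0.90 to 0.50) and 0.23 for *Meox1* (95% CI −0.09 to 0.55), with an adjusted p of 0.999 for each (limma).

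At D28, *Meox1* averaged 6.41 ± 0.77 in LP kidneys and 5.53 ± 0.81 in CN kidneys (SD, n = 5 each). All 5 LP arrays lay above the CN mean, but the CN array 2, at 6.89, exceeded 3 of the LP arrays. The difference of 0.88 (95% CI −0.05 to 1.80) was exceeded by 0.03% of all probe sets and did not pass limma (adjusted p = 0.77, exact permutation p = 0.0873), while rank products called it (false discovery rate 0.00111). Neither that share nor rank products scale a difference by its spread, and the SD of *Meox1* exceeded that of 99.9% of all probe sets in both D28 groups. With the zone score in the model the difference was 0.36 (limma, SE 0.15, adjusted p = 0.939). This score was −0.47 ± 0.55 in D28-LP and −0.84 ± 0.52 in D28-CN kidneys (exact permutation p = 0.302, n = 5 each), with 9 of 11 inner medulla markers above 0 and 10 of 11 cortex markers below 0 in the LP group, none of them called. The 3′ less 5′ signal was 0.625 ± 0.105 in D28-LP and 0.562 ± 0.057 in D28-CN kidneys (exact permutation p = 0.27). Its part in these differences was not tested. *Pax2* averaged 8.37 ± 0.57 in LP and 8.08 ± 0.33 in CN kidneys, a difference of 0.30 (95% CI −0.25 to 0.85, limma, adjusted p = 0.791, rank products false discovery rate 0.157), which was 0.005 with the zone score in the model. Without the D28-LP array 3 it was 0.11 and without the D28-CN array 1 it was 0.19. The SD of *Pax2* exceeded that of 99.5% of all probe sets in the D28-LP group and of 95.5% in the D28-CN group.

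*Eya1* at D28 averaged 6.77 ± 0.07 in LP and 6.91 ± 0.10 in CN kidneys. This difference of −0.15 (95% CI −0.28 to −0.01, limma, p = 0.0337, adjusted p = 0.77, exact permutation p = 0.0317) had the same sign as at D5, with all 5 LP arrays below the CN mean and overlapping groups. *Sall1* differed by 0.03 (95% CI −0.16 to 0.22, limma, adjusted p = 0.919). Averaged over the 3 ages, *Eya1* differed by −0.17 (95% CI −0.27 to −0.07, limma, adjusted p = 0.209) and missed the threshold, which 0.312% of all probe sets passed, while *Meox1* differed by 0.36 (95% CI 0.02 to 0.70, adjusted p = 0.408). With median centring *Eya1* passed at −0.19 (limma, adjusted p = 0.137). This centring called 1252 of 31042 probe sets, 20.8% of them higher, against 97 without it. *Eya1* also passed, at −0.16 to −0.19, without any 1 of the D5-LP array 5, the D28-LP array 5, the D5-CN arrays 1 and 5 and the D28-CN array 2. Without the last, *Meox1* passed too, at 0.47 (limma, adjusted p = 0.144). Leaving out 1 array at a time called 2 to 1486 of all probe sets. Among the other cap mesenchyme genes, 1 of 22 passed in this average, *Hoxd11*, a patterning gene of the kidney, at −0.21 (limma, adjusted p = 0.14), and 0 of 18 early nephron genes did. Within the single ages, 0 genes of these lists passed.

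Whether the diet difference itself changed with age was tested in the fit of all 30 arrays, and 0 of 4 members and 0% of all probe sets passed in any of the 3 contrasts. An unadjusted p under 0.05 was reached by 1 member in D10 against D5 (4.64% of all probe sets), 0 in D28 against D10 (3.70%) and 1 in D28 against D5 (4.35%). For *Eya1*, the LP minus CN difference was 0.41 higher at D10 than at D5 (95% CI 0.16 to 0.66, limma, adjusted p = 0.999). For *Meox1* it was 0.90 higher at D28 than at D5 (95% CI 0.07 to 1.73, limma, adjusted p = 1.0).

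**Figure D5:**
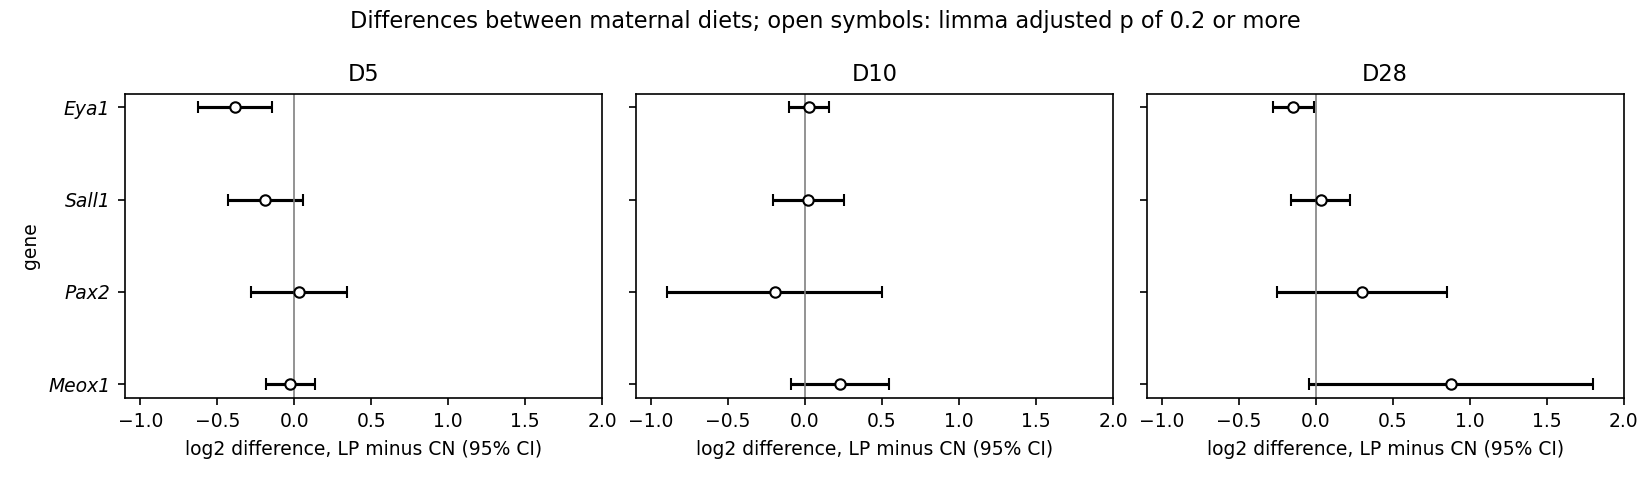
Log2 differences between LP and CN kidneys (LP minus CN, horizontal axes) with 95% confidence intervals for the 4 genes (vertical axis) at D5, D10 and D28, from the 10 arrays of each age. All symbols are open, since 0 of the 4 genes passed an adjusted p of 0.2, and the interval excludes 0 for *Eya1* at D5 and D28.

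The genes most like each factor were ranked by Pearson's r over the 30 arrays, which share 6 groups, so that much of r follows age. For *Eya1* they were *Rpl39* (r = 0.95), *Lhx1* (0.94), *Arhgdig* (0.93), *Gfra1* (0.93) and *Syndig1l* (0.93), of which *Lhx1* belongs to the early nephron and *Gfra1* to the ureteric tip list. For *Sall1* they were *Ddhd1* (r = 0.92), *Ccbe1* (0.90), *Dazap1* (0.86), *Rbm20* (0.85) and *Xpo7* (0.84). For *Pax2* they were *Wiz* (r = 0.89), *Chd7* (0.88), *Ubap2* (0.87), *Tfap2a* (0.86) and *Khsrp* (0.86), and for *Meox1* *Crispld2* (r = 0.97), *Gpha2* (0.97), *Ppp1r36* (0.96), *Nfkbia* (0.96) and *Cebpb* (0.95). Over the 10 D5 arrays with group means removed, the gene most like *Eya1* was *Hsp90b1* (r = 0.99), that most like *Sall1* was *Pak2* (0.98), that most like *Pax2* was *Rad54l* (0.97) and that most like *Meox1* was *A4galt* (0.90). Each is the highest r of many genes over only 10 arrays. Such values can arise by this selection alone, and they were not tested. The D5 signal of *Meox1* was also not shown to be above background.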

How the data were processed

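The authors hybridised kidney RNA to Affymetrix arrays, normalized the intensity files in R and deposited 1 log2 value per probe set and array; the deposited tables are named for qFARMS, which summarises probes by factor analysis. The tables for each age also hold the authors' own comparisons and 30 array columns whose names match no sample, and these were not used. Of 31099 probe sets, 57 controls were left out and 31042 tested (20826 with 1 symbol, 436 with several, 9780 with none).

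Values were used as deposited, without a filter. The diets were compared within each age (10 arrays) and the ages and diet by age contrasts in a fit of 6 group means over 30 arrays, with limma 3.58.1 (lmFit, eBayes, 2-sided) in R 4.3.3 and Benjamini-Hochberg adjustment over all probe sets tested, at 0.2 for diet and 0.05 for age. Single values were also tested by exact permutation over 252 splits, correlations by 100000 permutations. Rank products used 25 pairwise differences and 100 permutations. The fits were tested on simulated data.

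The members, gene lists and tests were chosen with earlier results of these data known. Where a gene had several probe sets, the one with the highest mean over 30 arrays stood for it. For each list, up to 4 called genes with the largest difference, otherwise the 2 with the smallest p, could be named for each contrast. *Osr2* between D10 and D28, and the genes listed for the lower and then higher pattern, were named after their values were seen. The rule for the most alike genes rested on *Six2* or *Cited1*. Since neither was analysed here, likeness to each of the 4 measured genes was used instead, chosen after seeing the data, as were the centring on reference genes (5 measured of *Tbp*, *Hprt1*, *Ppia*, *Ywhaz*, *Gusb* and *Polr2a*) and the correlations with the score. Further alternatives were a fit without the dimmer probe sets, median centring of each array, quantile normalization, the mean of all probe sets of a gene, an intensity trend with robust variances, a replicate block, the score as a covariate and leaving out each array. Tables were joined and statistics computed in Python 3.11.15 with scipy 1.17.1, pandas 2.3.3 and numpy 2.4.6, and plots drawn with matplotlib 3.10.9.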

Additional observations from a re-analysis of the deposited data

How the results depend on the processing

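With dim probe sets left out, *Eya1* and *Meox1* were no longer tested, and of the 2 members left 1 was called between D5 and D10, 1 between D10 and D28 and 0 between D5 and D28, in LP and in CN kidneys alike. In this setting 5840 to 10815 of the 15521 probe sets tested were called between ages. Leaving out 1 array at a time, the members called between D10 and D28 in LP kidneys numbered 3 to 4 (*Pax2* was added without D10-LP replicate 4 or 5 or D28-LP replicate 1 or 5), those between D5 and D28 in CN kidneys 2 to 3 (*Sall1* was added without D5-CN replicate 3), and those of the averaged diet contrast 0 to 2, with *Eya1* called without D5-CN replicate 1 or 5, D5-LP replicate 5, D28-CN replicate 2 or D28-LP replicate 5, and *Meox1* without D28-CN replicate 2 (0.47, limma, adjusted p = 0.144). Median centring gave 1 member in that contrast, where it called 1252 of all probe sets and leaving out 1 array called 2 to 1486. For the diet at D5, 2 members were called with the score as a covariate (362 of all probe sets). At that age 1 member was called with all arrays in 1 fit (38 of all probe sets) and 1 by rank products (671). For the diet at D28, 2 members were called by rank products (945 of all probe sets).

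Signs turned only where a difference had not passed, except for *Eya1* at D28 against D5 in LP kidneys, which was 0.13 when centred on reference genes. With that centring *Sall1* at D28 against D5 in CN kidneys turned to 0.27, and *Pax2* in CN kidneys to 0.0414 at D10 and 0.42 at D28, each against D5. *Pax2* at D28 against D5 in CN kidneys was also 0.058 with quantile normalization and 0.0371 with median centring. Quantile normalization turned the diet by age difference of *Sall1* between D10 and D28 to −0.007. With the score as a covariate, the diet difference was −0.0859 for *Pax2* at D5, and for *Sall1* −0.0367 at D10 and −0.0267 at D28. The correlation of *Sall1* and *Meox1* at D5 was −0.137 without 2 arrays, and that of *Eya1* and *Meox1* was 0.775. Over the arrays left out, *Pax2* in CN kidneys ranged from −0.289 to 0.002 (D10 against D5), −0.041 to 0.25 (D28 against D10) and −0.149 to 0.0673 (D28 against D5), and its diet difference from −0.0657 to 0.121 at D5 and −0.0193 to 0.104 on average. *Sall1* ranged from −0.0203 to 0.106 at D28 against D5 in LP kidneys, from −0.0362 to 0.104 for the diet at D10, from −0.05 to 0.0835 at D28, and from −0.0717 to 0.0681 for the diet by age between D10 and D28. The diet difference of *Meox1* at D5 ranged from −0.0881 to 0.0165 and that of *Eya1* at D10 from −0.0151 to 0.044.

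The replicate numbers of the labels did not pair the arrays, since same-numbered LP and CN arrays correlated at −0.705 to 0.648 over 15 pairs and 3 of 30 arrays matched best with their own number. A replicate block changed no call of a member. It gave 1 probe set called for the diet at D5 and 22 for the averaged contrast, where limma without it called 2 and 97. Other settings gave, for the diet at D5, 4 (quantile normalization), 4 (dim probe sets left out), 10 (gene means), 5 (trend and robust variances), 38 (all arrays in 1 fit), 362 (score as covariate) and 0 to 67 (1 array left out) called probe sets, and for the averaged contrast 63 (quantile normalization), 1252 (median centring), 8 (dim probe sets left out), 34 (gene means) and 2 to 1486 (1 array left out). With all arrays in 1 fit, 8 probe sets were called for the diet at D10 and 1 at D28. The methods' t-test reached its threshold for *Eya1* at D5 and D28 and for 2538, 1790 and 1841 of all probe sets at D5, D10 and D28, of which 0, 1 and 0 were called after Benjamini-Hochberg adjustment at 0.2.
Rank products called 671, 235 and 945 probe sets at D5, D10 and D28. Between ages, where 12383 to 20115 probe sets were called, 5840 to 10815 were called with dim probe sets left out (15521 tested) and 6107 to 9781 over gene means (14217 tested), as fewer features entered these fits.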
